A study of Rattus norvegicus with 24 samples.

Results

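Growth hormone pulse-dependent liver genes were followed with age in 4 genes of male rats: Cyp2c12 and A1bg, which female liver makes more of, and Cyp2c11 and Rup2, which male liver makes more of. They were found as the probe sets whose single gene symbol in the array annotation was one of these names, which gave 7 of the 12789 probe sets with 1 symbol and 4 of the 10412 genes. They were chosen by the liver values of these same arrays, above all by the jump of Cyp2c12 and A1bg at 24 months, so the liver values are a description and carry no test. All samples came from male Sprague Dawley rats aged 4, 10, 18 and 24 months, with no treatment named in the labels. Liver, hypothalamus, pituitary, spleen lymphocyte, kidney and bone were each measured once per age, on 24 arrays. Each array held RNA mixed in equal parts from 10 rats, and 1 set of 10 rats supplied all tissues of an age. A pool hides the spread between rats, so a high value at an age can come from all 10 rats or from a few. There was no female group and no group with altered growth hormone.

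In adult male rats the pituitary releases growth hormone in separate pulses with low levels between them, while in females the hormone is present more continuously. In hepatocytes the hormone binds its receptor and activates the transcription factor Stat5b, and the male pulses are known to sustain male-predominant genes such as Cyp2c11, while continuous hormone sustains female-predominant genes such as Cyp2c12. Cyp2c12 encodes a cytochrome P450 that hydroxylates steroid sulfates. A1bg encodes alpha-1-B glycoprotein, a plasma protein of the immunoglobulin superfamily. Cyp2c11 encodes the main testosterone hydroxylase of male rat liver, and Rup2 encodes a small secreted protein found in rat urine.

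The promoter windows of the 4 genes are shown because growth hormone is known to act on female-predominant genes through sites for Stat5 and for HNF6 (Onecut1). Each window runs from 250 bases before to 50 bases after the annotated start, read 5′ to 3′ along the gene from RefSeq on the rat build GRCr8. Capitals mark matches on either strand to TTCNNNGAA (STAT), ATTGAT (the core of HNF6), TGTTTAC (the core of FOXA), GTTAAT (part of the HNF1 site) and TATAAA (the TATA box). No 2 matches overlap in these windows.
Cyp2c12: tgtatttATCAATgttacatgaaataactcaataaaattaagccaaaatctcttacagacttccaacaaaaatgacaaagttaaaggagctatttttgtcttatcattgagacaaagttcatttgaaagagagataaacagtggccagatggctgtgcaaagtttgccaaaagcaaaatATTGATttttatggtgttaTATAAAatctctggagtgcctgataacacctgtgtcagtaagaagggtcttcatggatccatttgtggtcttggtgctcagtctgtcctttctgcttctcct
A1bg: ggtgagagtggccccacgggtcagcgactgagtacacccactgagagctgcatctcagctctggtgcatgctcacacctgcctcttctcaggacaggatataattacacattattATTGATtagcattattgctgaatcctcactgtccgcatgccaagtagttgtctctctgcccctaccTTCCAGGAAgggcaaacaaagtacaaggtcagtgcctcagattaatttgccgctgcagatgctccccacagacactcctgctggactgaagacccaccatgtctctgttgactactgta
Cyp2c11: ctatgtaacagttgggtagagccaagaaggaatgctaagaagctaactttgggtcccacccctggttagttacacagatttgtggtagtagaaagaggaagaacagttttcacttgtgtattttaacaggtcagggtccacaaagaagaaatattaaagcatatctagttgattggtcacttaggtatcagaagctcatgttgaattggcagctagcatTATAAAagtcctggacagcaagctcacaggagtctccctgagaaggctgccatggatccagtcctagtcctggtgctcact
Rup2: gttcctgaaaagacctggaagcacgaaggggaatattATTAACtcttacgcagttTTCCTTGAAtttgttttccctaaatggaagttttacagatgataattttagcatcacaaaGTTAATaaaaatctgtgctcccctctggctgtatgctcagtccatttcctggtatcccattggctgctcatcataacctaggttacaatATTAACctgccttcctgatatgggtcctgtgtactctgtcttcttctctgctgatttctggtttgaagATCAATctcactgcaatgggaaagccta
The Cyp2c12 window lies on the minus strand at chr1:248676985-248677284 and the A1bg window on the minus strand at chr7:94387447-94387746, both inside the annotated span of their gene. The Cyp2c11 window lies on the plus strand at chr1:246174966-246175265 and the Rup2 window on the minus strand at chr8:43551407-43551706. Cyp2c11 and Cyp2c12 thus lie on the same chromosome.

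The HNF6 core was matched in both female-predominant genes. In Cyp2c12 it began 71 bases before the start and again, on the opposite strand, 243 bases before it. In A1bg it began 135 bases before the start, and a STAT match began 69 bases before it. Cyp2c11 held a TATA match 31 bases before the start and no other match, and Cyp2c12 held one 52 bases before it. In Rup2, a STAT match began 195 bases before the start, matches to part of the HNF1 site began 213, 135 and 46 bases before it, and an HNF6 core began 22 bases after it. FOXA was matched in none of the 4 windows. Of all 33469 promoter windows of the same length, 8.87% held the STAT motif, 8.06% the HNF6 core, 3.78% the FOXA core, 7.45% the part of the HNF1 site and 14.2% the TATA motif. A match is a description of these letters and not a site shown to be bound.

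Cyp2c12 was lower at each age through 18 months and far higher at 24 months in liver. Its signal, the brightness of a probe set as scaled by the authors, was 1982 at 4 months, 1307 at 10 months, 1023 at 18 months and 13266 at 24 months (probe set 1368155_at). The first 3 ages were each lower than the one before, and the 24-month pool stood above every one of them. The signal was 13.0-fold higher at 24 than at 18 months (log2 3.70) and 6.69-fold higher at 24 than at 4 months (log2 2.74). Among the 7694 genes with a signal of at least 100 at both 24 and 18 months, this was the largest increase.

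A1bg also stood out at 24 months alone. Its liver signal was 126 at 4 months, 109 at 10 months, 117 at 18 months and 1247 at 24 months (1369509_a_at). The first 3 ages lay just above the floor of 100 used here, and only the 24-month pool stood clear of it. The signal at 24 months was 10.6-fold that at 18 months (log2 3.41), the second largest increase among the same genes. The 18-month signal was no higher than the 132 reached in pituitary, so the size of this ratio is uncertain. The genes that came next were Ppil2 (log2 2.69), Gaa, the lysosomal alpha-glucosidase (log2 2.08), and Lcn2, an iron-binding protein of inflammation (log2 2.04). All 3 steps were smaller than that of A1bg as measured.

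Cyp2c11 was lower at each later age, without a jump. Its liver signal was 30190 at 4 months, 25543 at 10 months, 22056 at 18 months and 19496 at 24 months (1387328_at). The steps between ages were 0.24, 0.21 and 0.18 on the log2 scale, all downward and none 2-fold, and the 24-month signal was 0.646 times the 4-month signal. The step at 24 months was therefore no larger than those before it, in contrast with Cyp2c12.

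Rup2 was bright in liver at every age, and its 4 probe sets differed in their course. On 1389270_x_at, the probe set used for the gene, the signal was 39299 at 4 months, 34440 at 10 months, 36154 at 18 months and 31295 at 24 months. On 1370349_a_at it was 51773, 42549, 46769 and 43405 at the same ages, and on 1370396_x_at it was 51298, 46094, 45680 and 46060. These 3 probe sets were highest at 4 months, and at 24 months they were lower than that by at most 0.33 on the log2 scale. The dimmer 1370350_x_at ran otherwise, with 1477, 2933, 1908 and 3101, and was 2.10-fold higher at 24 than at 4 months. An x in a probe set's name marks probes that can bind more than 1 transcript, and how far relatives of Rup2 contribute to any of the 4 was not tested. Signals this high can approach the upper limit of the scanner, which was not tested either, and the highest of any liver probe set was albumin at 72484.

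By the rule used for calls, a signal at least 2-fold different with at least 100 on both arrays, 2 of the 4 genes were higher at 24 than at 18 months (Cyp2c12 and A1bg) and 0 were lower. Of all genes measured at both ages, 1.83% were called higher and 1.53% lower, and nothing is read from this because the rule for choosing the genes used this contrast. At 10 against 4 months 0 of the 4 were called, beside 2.99% of all genes in either direction, and at 18 against 10 months 0 of the 4, beside 2.94%. At 24 against 4 months the same pair was called higher, beside 3.08% of all genes. With 1 pooled array per age, no error can be given for any of these liver differences.

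**Figure D1:**
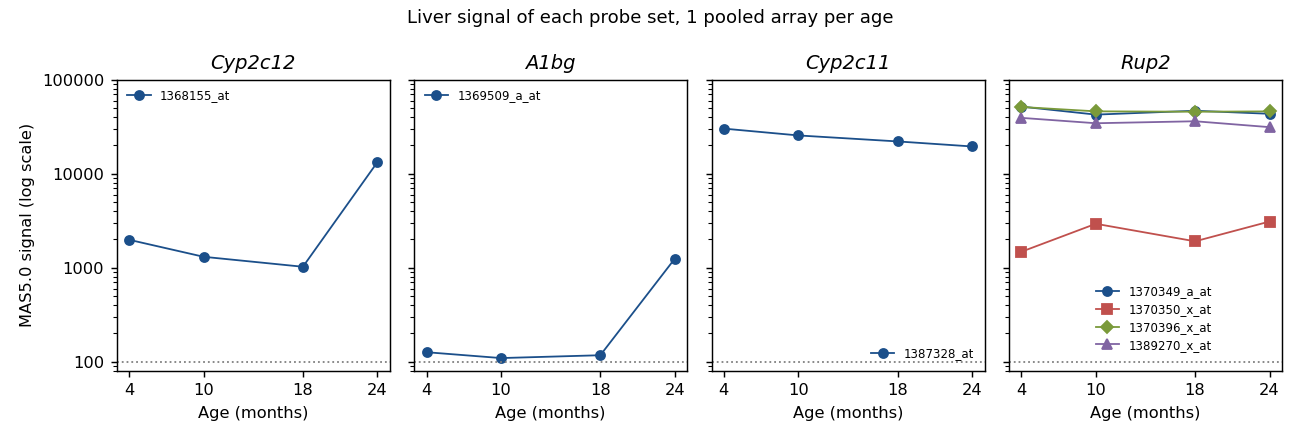
Liver signal (log scale) of every probe set of Cyp2c12, A1bg, Cyp2c11 and Rup2 at 4, 10, 18 and 24 months, 1 pooled array per point, with a dotted line at a signal of 100. Cyp2c12 reached 13266 and A1bg 1247 at 24 months, while Cyp2c11 ended at 19496, below its 3 earlier values.

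The liver array at 24 months also differed from the earlier ones in a sign of RNA quality. The log2 ratio of 3′ over 5′ probe sets, which rises as RNA is degraded, was 1.43 for Actb at 24 months, against 2.61 to 2.85 at 4 to 18 months. For Gapdh it was 0.74 at 24 months, against 1.75 to 2.06 at 4 to 18 months. The part of RNA quality in the jump was not tested. The median signal of the liver arrays ranged from 213 to 245, against a range of 213 to 309 over all 24. Between 76.0 and 82.3% of genes had a signal of at least 100 on each array.

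The liver arrays carried liver markers at every age. All 18 of the hepatocyte markers on the array (20 were listed) reached 100 on each liver array, with summed signals of 534960, 497649, 490753 and 489886 at 4, 10, 18 and 24 months. The summed signal of 3 endothelial markers was lowest at 24 months, at 1559, against 2482 to 2947 at 4 to 18 months. Most of it came from the brightest marker, at 1207 against 2064 to 2516, and at 24 against 18 months 2 of the 3 markers were lower and 1 higher. The summed signal of 5 lymphocyte markers was highest at 24 months, at 759, against 416 to 559. Only 1 of these 5 had at least 100 at both 18 and 24 months. The 3 Kupffer cell markers summed to 4756 at 24 months, against 3889 to 5661 at 4 to 18 months. In RNA of whole tissue, fewer cells of a type and less RNA per cell cannot be told apart. Xist, which is transcribed from the inactive X chromosome of females, had a signal of 10.6 in liver at 24 months and was below 100 on all 24 arrays, with a highest value of 37.7. No female array was at hand to show that this probe set detects Xist.

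Other female-predominant liver genes were compared as a list of 10, of which 9 were on the array and 6 reached 100 in liver at both 24 and 18 months. Of these 6, 3 were higher at 24 than at 18 months (Cyp2c12, A1bg and Prlr), 0 were lower, beside 1.83% of all genes called higher and 1.53% lower, and the median log2 change was 1.03, against 0.01 over all genes. Cyp2c12 and A1bg are in this count by their choice. Without them, 1 of 4 was higher and the median was 0.22. The prolactin receptor Prlr had signals of 373, 390, 564 and 1842 at 4, 10, 18 and 24 months (log2 1.71 at 24 against 18 months). Both of its other probe sets were highest at 24 months too, but they were already higher at each earlier step. One had 138, 209, 529 and 1067, and the other had 155, 346, 479 and 1373. On the first, the fold difference of 18 against 10 months was larger than that of 24 against 18 months (log2 1.01). The course of Prlr before 24 months thus differed from that of Cyp2c12 and A1bg.

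Several genes of this list stayed near the floor or moved little. Sult2a2, a hydroxysteroid sulfotransferase, had 65.3, 123, 97.4 and 386 at the 4 ages, so it was below 100 at 18 months and could not be called. Cux2, a transcriptional repressor of male-predominant genes in female mouse liver, had 6.51, 4.72, 5.32 and 64.3 and did not reach 100 at any age. Its highest value was nevertheless the one at 24 months. Sult2a1, also of this list, did not reach 100 at any age either and went the other way. Its highest value, 38.7, was at 10 months and its lowest at 24 months. Nothing is read from the course of either gene below the floor. Cyp2a1, a testosterone hydroxylase, had 1486, 1812, 1949 and 2483, and Cyp2c7, a retinoid-metabolising P450, had 33323, 29102, 32354 and 34418. Cyp3a9 went the other way and had 1801, 2498, 1213 and 1054, with a fall at 18 months that passed the rule (log2 −1.04). The jump at 24 months was therefore not shared by every female-predominant gene of the list.

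Male-predominant liver genes differed by small amounts at 24 months. Of 19 listed, 11 were on the array, and on the probe set used for each gene all 11 had a lower signal at 24 than at 18 months, with 0 past the 2-fold rule, beside 1.53% of all genes called lower, and a median log2 change of −0.25. Other probe sets did not all share that direction, since the dimmer one of Car3 was higher (log2 1.36), and for Rup2 1370350_x_at was higher (log2 0.70) and 1370396_x_at level (log2 0.01). Cyp2c11 and Rup2 are among the 11 by their choice. Without them, all 9 genes were lower on the probe sets used, and the median was −0.32. Over all genes 48.9% were lower at 24 than at 18 months. Bright genes as a whole leaned the same way, since of the 625 genes with a mean signal as high as that of the dimmest gene of the list 61.1% were lower, with a median of −0.07. On the probe sets used, all 11 remained lower after quantile normalization and after centring each array on its median.

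Against 4 months the 11 genes were again all lower at 24 months on the probe sets used, 2 of them past the 2-fold rule, beside 1.73% of all genes, and the median was −0.59. Without Cyp2c11 and Rup2, all 9 were lower and the median was −0.59. Among 522 genes as bright 67.6% were lower, with a median of −0.18. Obp3, an alpha-2u globulin that carries pheromones in male urine, had 24279 at 4 months, 15229 at 10 months, 13450 at 18 months and 8227 at 24 months. It was lower at every step and was the male-predominant gene with the largest difference (log2 −1.56 at 24 against 4 months). Car3, the carbonic anhydrase of male liver and muscle, had 36823, 24813, 19477 and 17301 on the brighter of its probe sets (log2 −1.09). On the dimmer one it had 2911, 585, 472 and 1208, so the probe sets disagree on the step at 24 months.

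The male-predominant P450 and sulfotransferase genes differed less than Obp3 and Car3. Cyp2a2, a testosterone hydroxylase, had 10133, 7142, 7396 and 5250, and Sult1e1, which sulfates estrogens, had 20917, 22889, 14999 and 11365. Cyp2c13 had 28291, 22057, 23843 and 20050, without passing the rule in any phase. Cyp2c22, Cyp3a2, Cyp3a18 and Mup5, a further major urinary protein, were lower at 24 than at 4 months by 0.34 to 0.59 on the log2 scale. Cyp2c11 (−0.63) thus stood near the median of the list, and Rup2 (−0.33) had the smallest difference of the 11.

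**Figure D2:**
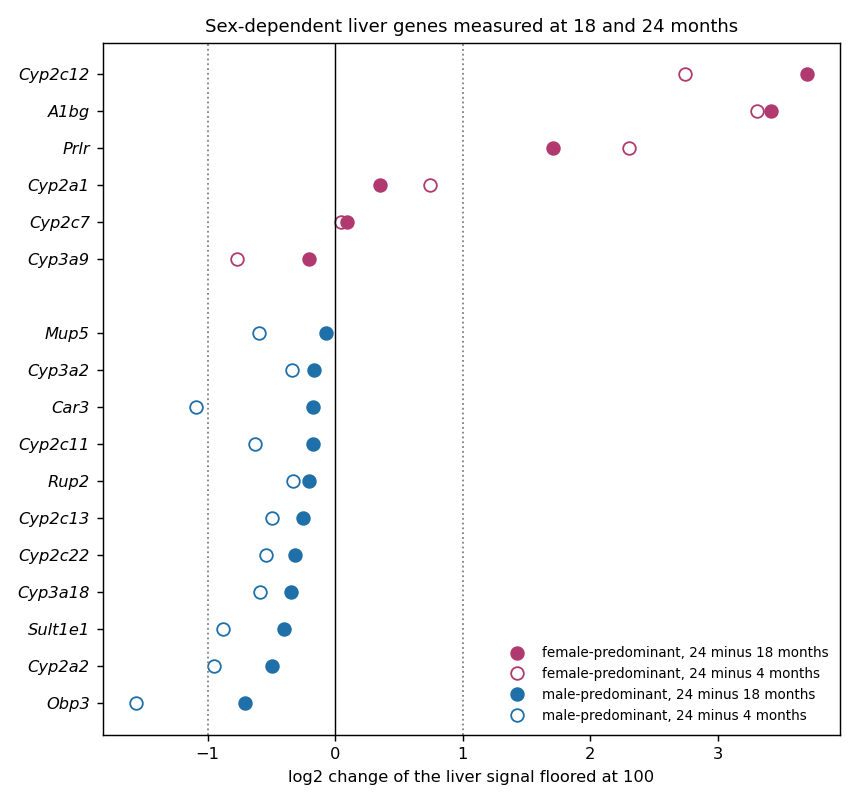
Log2 change of the liver signal, floored at 100, for female-predominant genes (upper rows) and male-predominant genes (lower rows) measured at 24 and 18 months, as 24 minus 18 months (filled) and 24 minus 4 months (open), with dotted lines at a 2-fold change. Cyp2c12 (3.70), A1bg (3.41) and Prlr (1.71) lie right of the 2-fold line for 24 minus 18 months, and all 11 male-predominant genes lie left of 0.

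Other P450 genes of liver were listed without regard to sex. Of 21 listed, 18 were on the array and 17 were measured at 24 and 18 months, of which 0 were higher, beside 1.83% of all genes, 1 was lower, beside 1.53%, and the median was −0.03. Cyp17a1, which makes androgen precursors, had 317, 168, 24.3 and 300 at 4, 10, 18 and 24 months, so it was below 100 at 18 months and could not be called. The gene that was lower was Cyp2j3, an arachidonic acid epoxygenase (937 at 24 months, against 1931 at 18 months). Of the earlier phases, Cyp8b1, which makes cholic acid, was higher at 10 than at 4 months (log2 1.35) and Cyp7a1, the rate-limiting enzyme of bile acid synthesis, was lower (log2 −1.76). Among the 5 other Cyp2c genes on the array, chosen after their values were seen, 0 were called at 24 against 18 months, with log2 changes from −0.32 to 0.09. Cross-hybridisation between Cyp2c transcripts and a change in the named gene cannot be told apart from these signals alone, and of the Cyp2c genes read here only Cyp2c12 was called higher at 24 months.

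In the signalling pathway of growth hormone in liver, 1 of 7 genes measured at 24 and 18 months was called higher and 0 lower, beside 1.83% and 1.53% of all genes. Stat5b, the signal transducer of the male pulses, had 160, 161, 138 and 316 at 4, 10, 18 and 24 months and was higher at the last age (log2 1.20). The receptor Ghr had 6587, 4527, 4858 and 4525 on the brighter of its probe sets, where the largest step lay between 4 and 10 months. On the other it had 264, 209, 155 and 377 and was 2.43-fold higher at 24 than at 18 months (log2 1.28), so the probe sets disagree on the step at 24 months. Igf1, the secreted growth factor under control of growth hormone, had 11280, 10603, 9239 and 7163. Its signal was lower at each later age, as for Cyp2c11 (log2 −0.66 at 24 against 4 months), with no step past 2-fold.

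Feedback inhibitors of the receptor were dim and uneven. Socs2 had 112, 238, 49.1 and 217, and was called higher at 10 than at 4 months (log2 1.09). Cish had 58.1, 17.9, 13.0 and 142, so that it reached 100 at 24 months alone. Socs3 had 245, 207, 96.9 and 286. None of these could be called at 24 against 18 months, because the 18-month signal was below 100. Igfals, the carrier subunit of circulating Igf1, had 1927, 2201, 2353 and 1819, and Stat5a, the close relative of Stat5b, had 463, 403, 543 and 495.

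Among transcription factors of sex-dependent genes, 0 of 9 measured at 24 and 18 months were called, beside 1.83% of all genes called higher and 1.53% lower. Onecut1, whose motif core stands in the windows above, had 563, 1422, 1507 and 1451, and was higher at 10 than at 4 months (log2 1.34) and level from then on. Its other probe set had 280, 218, 245 and 335 and did not show that step. Nr0b2, the bile acid-induced repressor, had 1388, 363, 361 and 369 and was lower at 10 than at 4 months (log2 −1.93). Hnf4a had 132, 184, 251 and 273 (log2 1.04 at 24 against 4 months), and Cebpb, a factor of the acute phase, had 2560, 1391, 1498 and 862 (log2 −1.57). None of the 4 jumped with Cyp2c12.

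Of 6 measured genes that handle sex steroids or glucocorticoids, 2 were higher at 24 than at 18 months and 0 lower, beside 1.83% and 1.53% of all genes. Hsd17b2, which inactivates testosterone and estradiol, had 1203, 927, 1160 and 2337 (log2 1.01). Akr1c14, a 3-alpha-hydroxysteroid dehydrogenase, had 845, 733, 745 and 1957 on the probe set used (log2 1.39). Its other probe set had 1295, 1165, 1852 and 1823, with the higher level already at 18 months. Hsd3b5, a male-predominant steroid dehydrogenase in rodent liver, had 7952, 7906, 6543 and 5277, lower at each later age and never by 2-fold.

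Upstream of liver, genes that make and control growth hormone and prolactin were read in hypothalamus and pituitary. In pituitary, Gh1, which encodes growth hormone, had 32493, 48276, 35019 and 37626 at 4, 10, 18 and 24 months, and Prl, which encodes prolactin, had 31107, 34786, 36507 and 28302. Neither passed the 2-fold rule in any phase. The receptor of growth hormone-releasing hormone, Ghrhr, had 1189, 523, 908 and 779 in pituitary and was lower at 10 than at 4 months (log2 −1.19), beside 1.19% of all genes. Pou1f1, the transcription factor of growth hormone cells, had 2273, 2445, 2130 and 2680.

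In hypothalamus, Ghrh had 295, 216, 227 and 281. Sst, which encodes somatostatin, the inhibitor of growth hormone release, had 3774, 1597, 3224 and 2116. It was lower at 10 than at 4 months (log2 −1.24), beside 2.48% of all genes. Sst was higher at 18 than at 10 months (log2 1.01), where 4.31% of all genes were called in either direction. Both calls rest on the 10-month array, whose log2 3′ over 5′ ratio for Actb was 3.09, against 1.10 to 1.89 at the other ages. For Gapdh the ratio was 0.36, against 0.27 to 0.45. The part of RNA quality in these calls was not tested. At 24 against 18 months, 0 of the 8 genes measured in hypothalamus and 0 of the 9 in pituitary were called, beside 3.81% and 1.24% of all genes. These are levels of transcripts, and no array shows how the hormone was released over time.

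**Figure D3:**
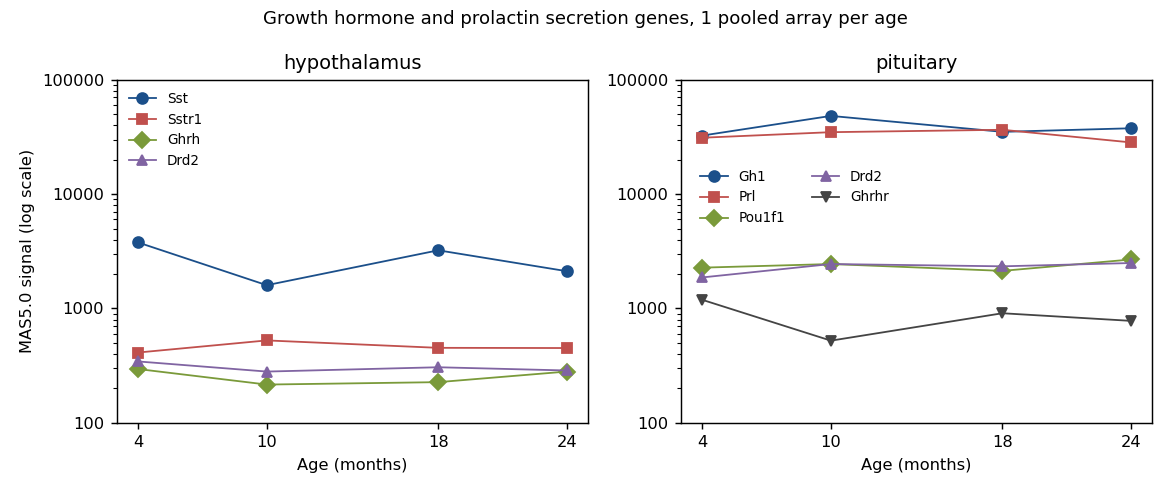
Signals (log scale) of genes of growth hormone and prolactin secretion in hypothalamus (left) and pituitary (right) at 4, 10, 18 and 24 months, 1 pooled array per point. Pituitary Gh1 stayed between 32493 and 48276, and hypothalamic Sst was lowest at 10 months, at 1597.

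Outside liver, Cyp2c12 and A1bg were near or below the floor. Cyp2c12 reached 100 on 0 of the 20 other arrays, with values from 5.12 to 97.6. A1bg reached 100 on 3 of the 20, at 101 in spleen lymphocyte at 4 months and at 132 and 115 in pituitary at 18 and 24 months. Its liver values at 4 to 18 months, 109 to 126, lay within the range of those tissues, so A1bg was set apart in liver at 24 months alone. The 24-month jump had no counterpart elsewhere, since Cyp2c12 at 24 months was at 70.6 in hypothalamus, 16.3 in pituitary, 15.1 in spleen lymphocyte, 13.0 in kidney and 67.5 in bone.

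Cyp2c11 was seen in kidney as well as in liver. Its kidney signal was 3320 at 4 months, 1513 at 10 months, 1034 at 18 months and 1184 at 24 months, against 110 to 406 in the other tissues without liver. Kidney was thus next after liver at every age. It was 11.0, 5.92, 4.69 and 6.07% of the liver signal of the same age, while the median hepatocyte marker in kidney was at 0.38 to 0.91% of its liver signal. Single markers stood far above that median, with Hpd at 47.9 to 67.6% and Fgb at 46.5 to 102%. Whether relatives of Cyp2c11 add to its kidney signal was not tested. Between 10 and 4 months the kidney signal was lower (log2 −1.13), beside 0.600% of all kidney genes called lower. In liver the same phase gave log2 −0.24, and the difference between the tissues was not tested.

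The remaining calls of Cyp2c11 came from low signals. In spleen lymphocyte it was higher at 10 than at 4 months (225 against 110, log2 1.03), beside 1.99% of all genes. The 4-month spleen lymphocyte array had log2 3′ over 5′ ratios of 3.74 for Actb and 2.40 for Gapdh, against 2.63 and 1.78 at 10 months. The part of RNA quality in this call was not tested. In bone Cyp2c11 was higher at 18 than at 10 months (299 against 119), beside 6.97% of all genes.

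**Figure D4:**
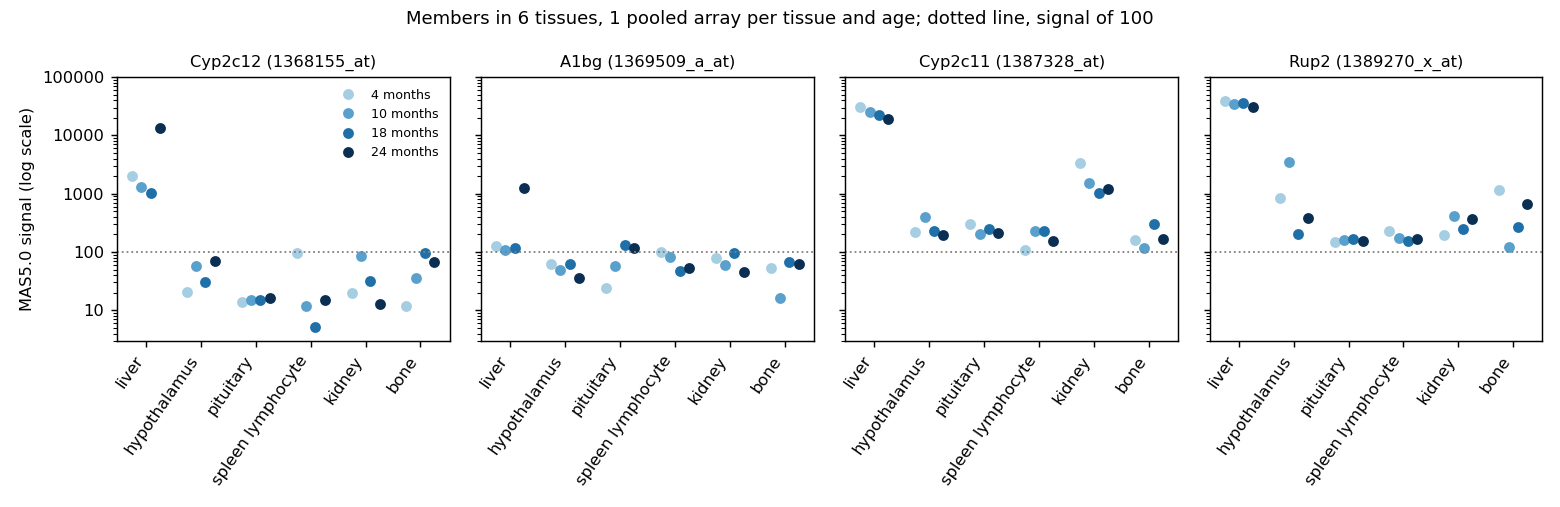
Signals (log scale) of the 4 genes in liver and 5 other tissues, with points from 4 months (light) to 24 months (dark), 1 pooled array per point, and a dotted line at 100. Only liver holds Cyp2c12 above 100, Cyp2c11 has its next highest signals in kidney (1034 to 3320), and Rup2 in hypothalamus reaches 3537 at 10 months.

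Rup2 had its highest signals outside liver in hypothalamus and bone, each at some ages. Its hypothalamus signal was 833 at 4 months, 3537 at 10 months, 200 at 18 months and 386 at 24 months, and in bone it was 1140, 123, 269 and 664. In kidney it was 194, 423, 252 and 374. In spleen lymphocyte and pituitary it lay between 151 and 229 at every age. The single highest value outside liver was that of hypothalamus at 10 months, which 1370349_a_at gave as 5055 and 1370396_x_at as 3156.

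Albumin, the main protein that liver secretes, was high on the same hypothalamus and bone arrays. Alb had 1371, 9580, 393 and 376 in hypothalamus at 4, 10, 18 and 24 months, and 3530, 333, 987 and 2548 in bone. At 10 months in hypothalamus Rup2 was at 10.3% of its liver signal, Alb at 14.0% and the median of the 18 hepatocyte markers at 1.75%, with 15 of the 18 at 100 or more, against 7 to 13 at the other ages. In bone Rup2 was at 2.90, 0.36, 0.74 and 2.12% of its liver signal at 4, 10, 18 and 24 months, while the median of the markers was at 0.95, 0.52, 1.20 and 0.94% and did not follow it. Over the 20 arrays without liver, log2 Rup2 correlated with log2 Alb at a Pearson r of 0.92 (Spearman rho 0.85), and at 0.84 without the 2 arrays whose albumin was farthest from the median. The other markers differed widely, with r reaching 0.94 for Fgg, the gamma chain of fibrinogen, but 0.09 for Fgb, its beta chain, 0.07 for F2, the precursor of thrombin, −0.04 for Hpd, an enzyme of tyrosine breakdown, and −0.20 for Cps1, the first enzyme of the urea cycle. Arrays of a tissue share tissue and those of an age share rats, so these are descriptions with no test, and the part of liver RNA in the hypothalamus and bone samples was not tested.

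By the 2-fold rule Rup2 was higher in hypothalamus at 10 than at 4 months (log2 2.09), beside 0.896% of all genes, and lower at 18 than at 10 months (log2 −4.14), beside 1.31%. In bone it was lower at 10 than at 4 months (log2 −3.22), beside 5.85%, higher at 18 than at 10 months (log2 1.13), beside 6.97%, and higher at 24 than at 18 months (log2 1.30), beside 1.85%. In kidney it was higher at 10 than at 4 months (log2 1.13), beside 0.613%. In pituitary 0 of the 4 genes were called in any phase, beside 2.31% of all genes at 10 against 4 months, 1.35% at 18 against 10 months and 1.24% at 24 against 18 months.

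**Figure D5:**
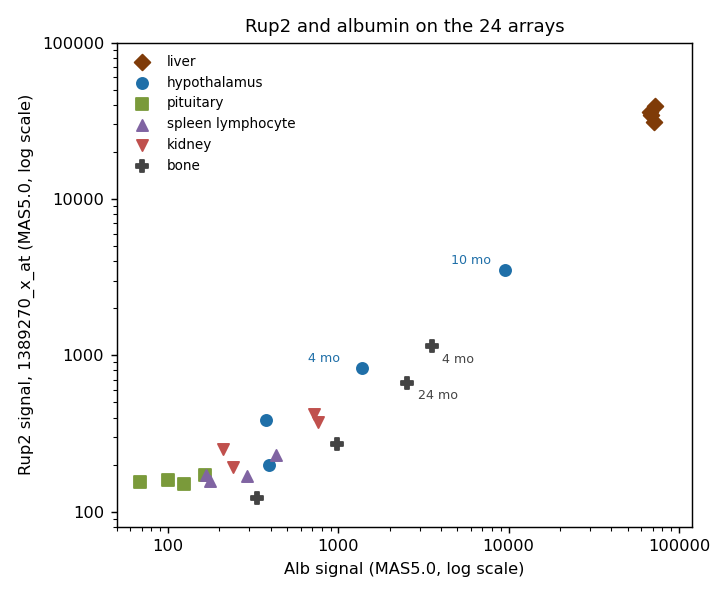
Rup2 signal against albumin signal (both on log scales) on the 24 arrays, coloured by tissue, with the brighter hypothalamus and bone arrays marked by age in months. The hypothalamus array of 10 months lies nearest to liver, with Rup2 at 3537 and albumin at 9580.

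Age was tested only outside liver, because the liver values chose the genes. The choice was made with earlier results of these data known. With tissue and age as factors over the 20 arrays, limma had 12 residual degrees of freedom and tested 9527 genes, among them Cyp2c11 and Rup2, while Cyp2c12 and A1bg were too dim. Cyp2c11 differed by −0.32 on the log2 scale at 24 against 4 months (SE 0.31), with an adjusted p of 0.89 by limma. Rup2 differed by −0.27 (SE 0.58), with an adjusted p of 0.97 by limma. At 24 against 18 months the shifts were −0.33 for Cyp2c11 and 0.56 for Rup2, with an adjusted p of 0.999 for both by limma. Of all 9527 genes limma called 0 (0%) in each of the 4 contrasts, although 553 had an unadjusted p below 0.05 at 24 against 4 months and 226 at 24 against 18 months. Because 1 set of 10 rats supplied every tissue of its age, this test measures the spread between tissues and not that between rats. It seeks a shift common to the tissues, so a change in 1 tissue alone counts mostly as spread. For Cyp2c11 the change at 24 against 4 months ran from log2 −1.49 in kidney to 0.51 in spleen lymphocyte.

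Genes with the course most like each of the 4 were sought by the Pearson correlation of log2 signals over all 24 arrays, among 9682 genes. For Cyp2c12 these were Car5a (0.98), Afp (0.97), Crp (0.97), Cps1 (0.96) and Akr1c14 (0.96). Crp, an acute phase protein, had 4879, 5899, 5048 and 12896 in liver, and Afp, the fetal serum protein, had 538, 514, 501 and 717. Both were highest at 24 months, with smaller steps than Cyp2c12. Outside liver Cyp2c12 was below 100 on every array, so its floored signal was constant there. The correlations with Cyp2c12 therefore rest on the gap to liver and on its liver values, among them the 24-month value that chose the gene. For A1bg the most alike were Cd248 (0.98), Dbh (0.93), Neurl1b (0.86), Serpinb9b (0.84) and Arnt (0.83). Serpinb9b had 43.3, 264, 212 and 695 in liver, and Cd248 had 76.6, 64.1, 96.9 and 205. On every other array A1bg lay at 132 or below, so these correlations rest on the liver array of 24 months, whose value was among those that chose the gene.

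For Cyp2c11 the most alike were Bhmt, Dpt, Ghr, Pzp and Afm (all 0.98), and for Rup2 Hpx, Fgg and Alb (all 0.98), Cyp2c7 (0.96) and Apoh (0.96). These correlations rest mainly on the gap between liver and the other tissues. The genes most like Cyp2c11 did not all have lower liver signals with age, since Bhmt had 4309, 5118, 3435 and 4765, while Afm and the brighter probe set of Ghr were lower at 24 than at 4 months. Afm, the plasma carrier of vitamin E, had 9529, 10001, 8708 and 7620.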

How the data were processed

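RNA was measured on 24 Affymetrix RAE230A arrays, 1 pool per tissue and age. The deposited values are intensities: the authors summarised the probes of each probe set into 1 linear signal with MAS5.0 (version not given in the sources used here), scaled to a target of 500. The array annotation gave the gene names, probe sets with several symbols or none were left out, and a gene was read from the probe set at or above 100 on the most arrays. Signals were floored at 100 before log2 was taken. Calls needed a 2-fold difference with 100 on both arrays, in place of the Present calls in the study's methods. Detection calls and change p-values were not used here.

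The only test was limma on the 20 arrays without liver, for genes at or above 100 on at least 4 of them, with tissue and age as factors and Benjamini-Hochberg adjustment at 0.05. Both steps were run on simulated data, and the outcome is not given here. The limma simulation left out the floor of 100 and drew noise independently for each array, whereas real tissues of an age share rats. Nothing is read from it. With 1 array per group, the number of arrays limits the precision. The 4 genes and all lists were chosen with earlier results of these data known. Named were the 4 genes, the members of each list with the largest steps at 24 months or past the 2-fold rule, members whose level helps to read them, and the 5 genes most alike. The list members printed were picked after their values were seen. Alternatives were other floors, folds, normalizations, probe set rules and filters, array weights and leaving out each tissue. Promoters came from RefSeq (GRCr8), where all 4 genes matched by symbol. Protein sequences were not analysed here. The software was limma 3.58.1 on R 4.3.3, and Python 3.11.15 (pandas 2.3.3, numpy 2.4.6, matplotlib 3.10.9).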

Additional observations from a re-analysis of the deposited data

Results flagged for a closer look

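Some changes of Cyp2c11 and Rup2 outside liver ran in opposite directions in different tissues, with each tissue and age on 1 pooled array, so that the differences were not tested. At 10 against 4 months, Cyp2c11 was higher in spleen lymphocyte by 1.03 on the log2 scale and lower in kidney (log2 −1.13). Over the same ages, Rup2 was higher in hypothalamus (log2 2.09) and in kidney (log2 1.13) and lower in bone (log2 −3.22). At 18 against 10 months, Rup2 was higher in bone (log2 1.13) and lower in hypothalamus (log2 −4.14). Albumin moved in the same direction as Rup2 in hypothalamus and bone over these phases. The log2 3′ over 5′ ratio of Actb was 3.74 in spleen lymphocyte at 4 months and 3.09 in hypothalamus at 10 months. Each was the highest of its tissue, and the part of RNA quality was not tested.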

How the results depend on the processing

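The jump at 24 against 18 months ran from log2 3.35 to 3.70 for Cyp2c12 and from 2.64 to 3.47 for A1bg. These ranges span every floor, pseudocount, normalization and probe set rule tried. A floor or pseudocount cannot turn a rise into a fall, and each of these genes has 1 probe set. For those settings the direction was therefore fixed in advance, and these values are also the ones that chose the genes. The lowest A1bg value, 2.64, came with a floor of 200, which lies above its earlier signals. With 200 required on both arrays, only 1 of the 4 genes, Cyp2c12, was called higher. The share of all genes called with that limit is not given here, and this contrast chose the genes, so nothing is read from the count. Cyp2c11 stayed lower, from −0.22 to −0.08, while Rup2 ran from −0.26 to 0.10, so its direction depended on the setting. With a 1.5-fold rule, 1 of the 4 genes (Cyp2c12) was called lower at 10 against 4 months and 1 male-predominant gene was called lower at 24 against 18 months. The share of all genes called lower with that rule is not given here, so nothing is read from these counts.

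Both 24 against 4 months and 24 against 10 months were chosen after seeing the data. The first gave 2.74 for Cyp2c12 and 2 male-predominant genes called lower. At 24 against 10 months, 1 male-predominant gene was called lower and 0 higher. Of the female-predominant genes, 4 were called higher there (Cyp2c12, A1bg, Sult2a2 and Prlr) and 1 lower (Cyp3a9). The share of all genes called at 24 against 10 months is not given here. The median of the female-predominant list was 1.66 with each array centred on its median, 1.71 with a floor of 50 and 1.65 at 24 against 10 months, since the number of its genes that could be measured changed or another age was set against 24 months. The count of all liver genes called higher at 24 against 18 months was 141, and 665 with a 1.5-fold rule, 17 with a 3-fold rule, 339 with 50 on both arrays and 52 with 200 on both arrays.

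Outside liver, limma called 0 genes under every alternative, including leaving out each tissue in turn and, chosen after seeing the data, the 10-month hypothalamus array. Over these alternatives the shift of Rup2 at 24 against 4 months ran from −0.57 to 0.33 and that of Cyp2c11 from −0.53 to −0.03. No analysis paired by rat was possible, because each tissue and age has 1 pooled sample and the labels carry no replicate numbers. The tissue factor of the limma fit compares ages within tissues. One pooled array per age leaves the liver values without an error, the pool hides the spread between rats, signals near 100 are the least certain, and whether probes of Cyp2c or urinary protein genes also bind relatives was not tested.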
